A study of Canis lupus with 24 samples.

Results

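Collagens are the triple-helical proteins that give the extracellular matrix its strength. Fibrillar collagens (types I, II, III, V, XI, XXIV and XXVII) build fibrils in stroma, type IV forms the sheet of basement membranes, fibril-associated collagens coat fibril surfaces, and type XVII crosses the membrane of basal epithelial cells at hemidesmosomes. In the bladder, as in other lined organs known from human and mouse work, epithelial cells make much of the basement membrane and fibroblasts make most of the fibrillar collagen below it. The collagen genes were taken as all features annotated with exactly 1 symbol made of COL, a number, A and a number, which gave 44 features for 41 genes among the 16295 genes with a single symbol. For COL23A1, COL25A1 and COL27A1, which have 2 features each, the brighter feature over all 24 arrays was used. The 41 genes comprised 11 fibrillar, 6 basement membrane network, 10 fibril-associated, 4 beaded filament, 4 transmembrane and 2 multiplexin genes, 1 anchoring fibril gene (COL7A1), 1 short-chain network gene (COL10A1) and 2 others.

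The study measured mRNA in the canine line K9TCC (Canis lupus), derived from transitional cell carcinoma of the bladder, on Affymetrix Canine Gene 1.1 ST arrays. It compared cells growing attached to plastic with spheres described as cancer stem cells, and asked how each form responds to inhibition of COX-2 (cyclooxygenase-2), the prostaglandin-synthesising enzyme encoded by PTGS2. Each of 8 groups had 3 arrays. Adherent cells and spheres were each given DMSO alone or 50 µM mavacoxib, a COX-2 inhibitor used in dogs, for 24 h, or a negative control siRNA or an siRNA labelled as targeting COX-2 for 48 h. All groups derive from this single line. Adherent cells grew in DMEM/F-12 with fetal bovine serum, and spheres in serum-free N2 medium with insulin, transferrin, EGF and bFGF on ultralow-attachment plates, passaged at least 5 times. Both forms were transfected with Lipofectamine RNAiMAX after seeding the day before in conditions the protocol calls anchorage dependent. Sphere growth therefore cannot be told apart from the medium and serum, and the siRNA groups differ from the DMSO groups in reagent and in time. Whether arrays sharing a group stem from different cultures is not stated, so the p-values reflect only array-to-array spread, and 3 arrays limit the precision of each value.

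Signals are log2 values, so a difference of 1 is a 2-fold change. Over all features the median was 4.82, and array medians ranged from 4.68 to 5.02. Gene profiles correlated at 0.988 to 0.997 within a group and at 0.902 to 0.927 between sphere and adherent arrays. PTGS2 went against the siRNA label, so the groups are called labelled COX-2 siRNA throughout. In adherent cells its mean was 10.99 with negative siRNA and 11.32 with the labelled COX-2 siRNA (limma, adjusted p = 0.0888). In spheres it was 10.31 and 11.47 (adjusted p = 2.57e-07). No fall of PTGS2 mRNA against negative siRNA was thus measured. Negative siRNA itself differed from DMSO, by 1.39 ± 0.13 (SE) in adherent cells and by -1.80 ± 0.13 in spheres. The DMSO means were 9.60 and 12.11, so the labelled siRNA spheres lay under the DMSO spheres. All 7 epithelial markers were measured and 5 or 6 of them lay above 4.82 in each group, but 5 or 6 were lower in spheres in every sphere comparison. The 5 urothelial markers all lay above 4.82 in adherent cells and 2 or 3 did so in spheres. Of 7 fibroblast markers, PDGFRA had group means of 7.69 to 9.60 and THY1 exceeded 4.82 only in spheres with DMSO (5.98) or mavacoxib (5.70). DCN, LUM, DPT, FAP and PDGFRB stayed between 1.95 and 3.74. Array 3 of the spheres with negative siRNA read highest of its group for 33 of the 41 collagen genes, and array 3 of the spheres with DMSO for 27, so the counts below are also given without these arrays where they matter. The first array also had the highest median of its group over all features (4.96, against 4.79 and 4.83). The second had the lowest (4.88, against 4.95 and 4.95). The share of all genes that read highest on these arrays is not given here.

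Few collagen genes lay above the median signal in every group. COL12A1 and COL17A1 did so throughout, with values from 7.29 to 10.50 and from 6.82 to 9.80, and COL23A1 (6.18 to 8.49) and COL5A1 (4.84 to 6.28) also had all group means above 4.82. COL12A1 is a fibril-associated collagen that bridges fibrils and their surroundings, COL17A1 is the hemidesmosomal transmembrane collagen, COL23A1 is another transmembrane collagen, and COL5A1 encodes a chain of type V collagen, which starts type I fibrils. A further 9 genes had at least 1 group mean above 4.82, and the remaining 28 had none. The deposited values carry no detection calls, so a signal under 4.82 may be background. Where only the dimmer group is background, the difference is a lower bound. Where both groups may be, as for these 28 genes, no such bound follows. The dimmest were COL9A1 (mean over all arrays 2.33), COL21A1 (2.37), COL28A1 (2.54), COL4A6 (2.60) and COL13A1 (2.83). Signals of different probes are not compared with each other, only each gene between groups.

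**Figure D1:**
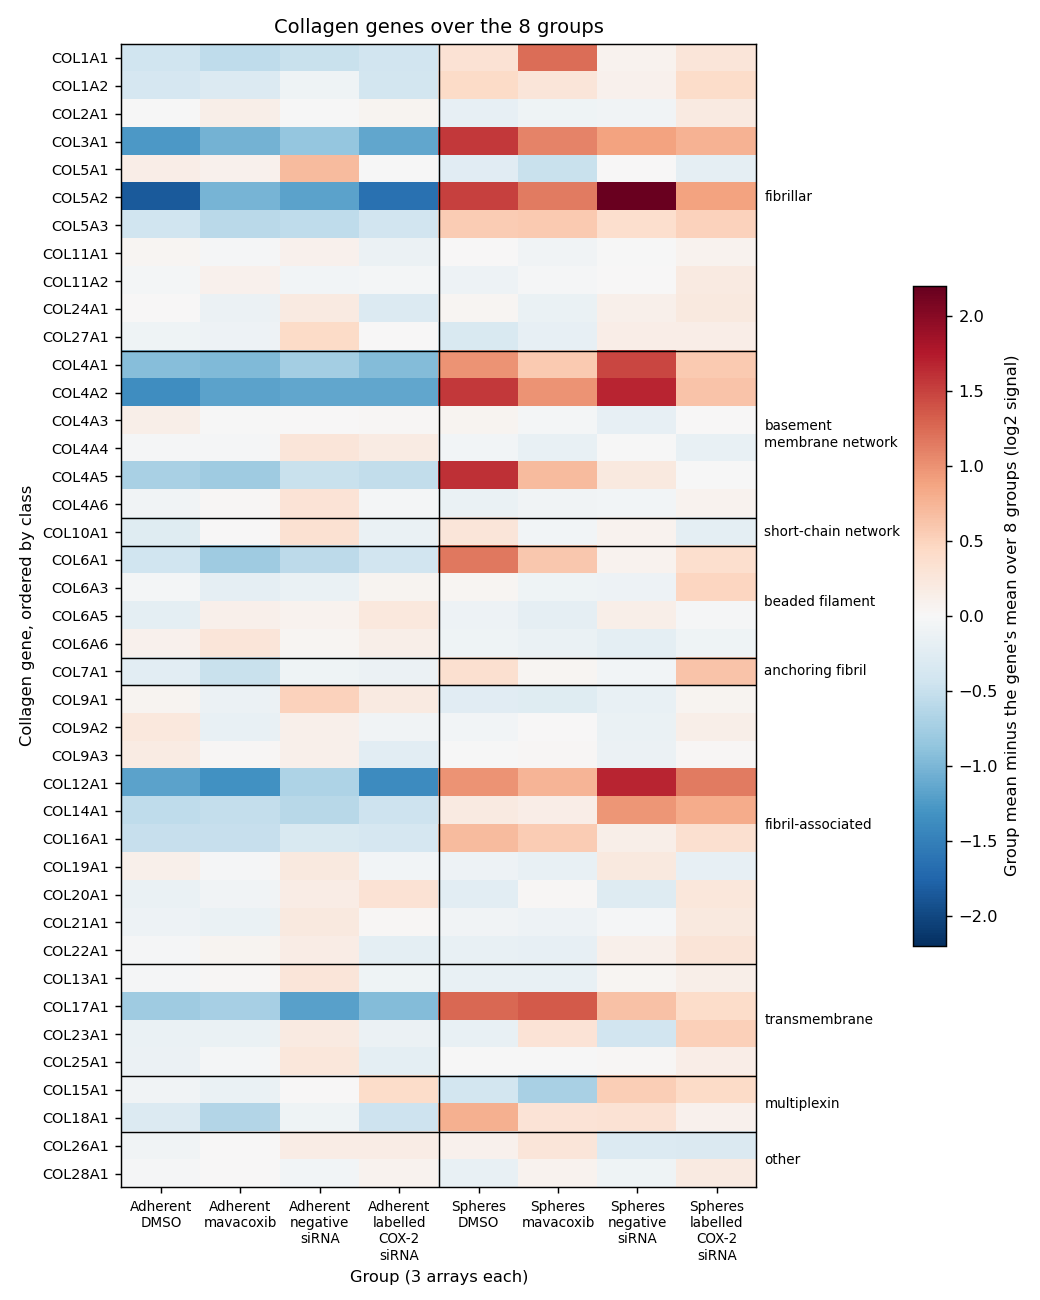
Group mean of each of the 41 collagen genes (rows, ordered by class) minus that gene's mean over the 8 groups (columns, 3 arrays each), in log2 signal; red is above and blue below the gene's own mean. The adherent and sphere sides separate for COL3A1, COL5A2, COL4A1, COL4A2, COL12A1 and COL17A1, while most rows are pale.

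Spheres carried more mRNA of a set of collagens from several classes. With DMSO, 15 of the 41 genes were higher in spheres and 0 were lower (limma, adjusted p under 0.05 over all 16295 genes), which is 36.6% of them; over all genes 46.1% passed, 22.8% higher and 23.3% lower. With mavacoxib on both forms, 15 were higher and 2 lower (all genes 46.8%: 22% higher, 24.8% lower). With negative siRNA, 12 were higher and 3 lower (all genes 42.7%: 20.5% and 22.1%), and with the labelled COX-2 siRNA 16 were higher and 0 lower (all genes 48%: 22.2% and 25.8%). Collagen genes were thus called no more often than genes in general, and the calls lay mostly on the higher side. The collagen share covers all 41 genes, of which 28 had no group mean above 4.82 and may be background. The share among all genes of like signal is not given here. The split depends on the scaling. With every array shifted to one median, which moved the median difference of all genes from -0.03 to -0.22 in the DMSO comparison and from -0.04 to -0.30 in that with the labelled siRNA, the counts became 15 higher and 3 lower with DMSO, 15 and 4 with mavacoxib, 10 and 7 with negative siRNA, and 11 and 6 with the labelled COX-2 siRNA. Quantile normalization gave 12 higher and 2 lower in the last of these. Without array 3 of the negative siRNA spheres, 9 were higher and 6 lower. The shares of all genes are given for the main fit only, so the counts from these other fits cannot be set against them. Across the 41 genes the median difference was 0.04, 0.05, -0.04 and 0.26 in the same order, against -0.03, -0.05, -0.06 and -0.04 for all genes.

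**Figure D2:**
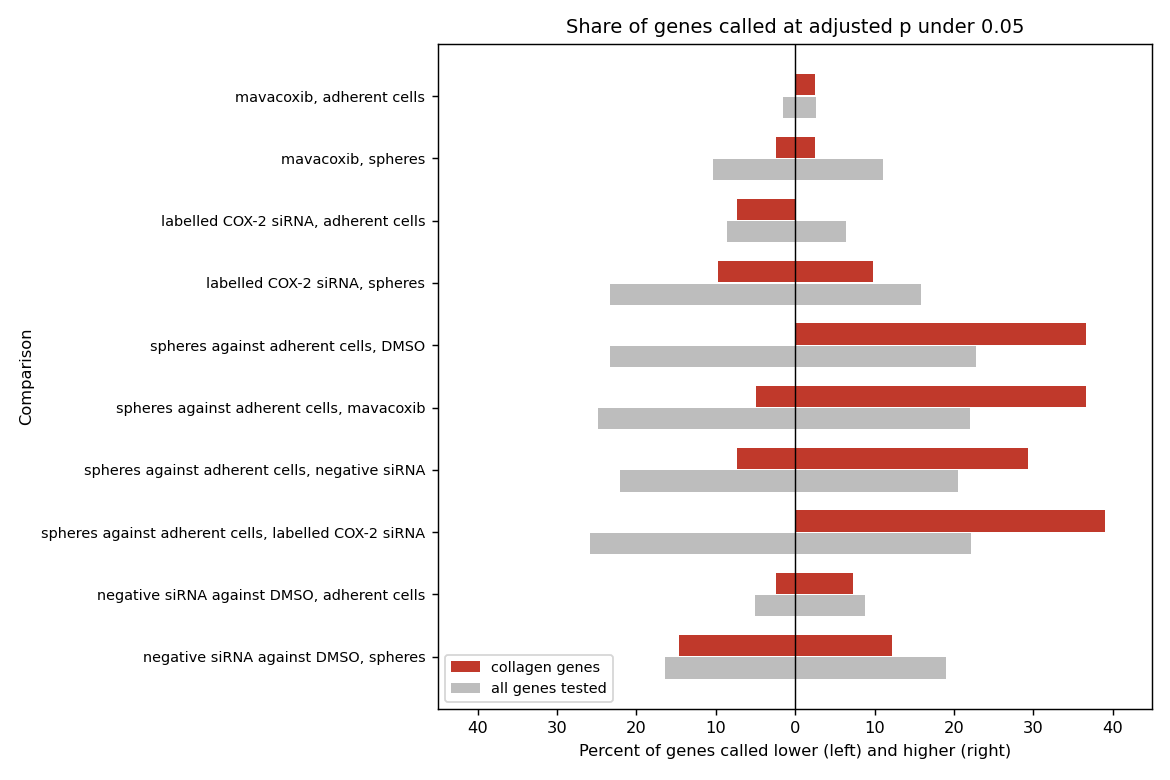
Percent of the 41 collagen genes (red) and of all 16295 genes (grey) called at adjusted p under 0.05 in the 10 comparisons between groups, lower to the left and higher to the right of 0. In the DMSO comparison of spheres with adherent cells the collagen bar reaches 36.6% on the right with none on the left.

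The same 11 genes were higher in all 4 sphere comparisons: the fibrillar COL1A1, COL3A1, COL5A2 and COL5A3, the basement membrane COL4A1, COL4A2 and COL4A5, the beaded filament COL6A1, the fibril-associated COL12A1 and COL14A1, and COL17A1. Of these, 8 kept all 4 calls in every alternative setting that tested them; COL5A3 and COL14A1, with no group mean above 4.82, were not tested with dim genes filtered out. COL1A1, COL4A5 and COL6A1 did not: with negative siRNA, COL4A5 lost its call without adherent array 1 or sphere array 3 (largest adjusted p = 0.0681), and COL6A1 without adherent array 2 or sphere array 3 or when only the compared arrays were fitted (largest adjusted p = 0.2). The lost calls of COL1A1 and of COL4A5 with the labelled siRNA are given with those genes. No collagen gene was lower in all 4. The share of all genes that were higher in all 4 is not given here, so the 11 cannot be set against it. The epithelial and urothelial lists moved with the sphere differences: 1 epithelial marker was higher (KRT5) and 5 lower of 7 with DMSO, and 1 higher and 6 lower with negative siRNA, with medians of -0.69 to -1.0 over the 4 comparisons. Of the 5 urothelial markers 1 was higher (UPK1B) and 3 lower with DMSO, and 1 higher and 4 lower with negative siRNA, with medians of -4.66 to -5.53. The log2 of the summed signal was 13.90 to 13.92 in adherent DMSO cells and 13.61 to 13.67 in DMSO spheres for the epithelial list, and 12.82 to 13.03 and 11.95 to 12.25 for the urothelial list. The fibroblast markers did not move with them as a list. With DMSO 1 of 7 was higher and 0 lower (THY1, by 2.15 ± 0.22). With negative siRNA 0 were higher and 1 lower (PDGFRA, by -1.42 ± 0.11). The log2 of their summed signal was 9.57 to 9.76 in adherent DMSO cells, 9.62 to 9.91 in DMSO spheres, 9.20 to 9.23 in adherent negative siRNA cells and 7.93 to 8.05 in negative siRNA spheres. That sum is mostly PDGFRA, with means of 9.60, 9.56, 9.11 and 7.69 in these groups, and does not describe the other markers. Of 5 leukocyte markers none exceeded 4.82 in any group, and of 5 endothelial and muscle markers VWF alone did so, in spheres with DMSO (5.29) or mavacoxib (5.08). The part of these cell types in the collagen differences was not tested. In bulk RNA, a different share of expressing cells and a different amount of mRNA per cell cannot be told apart.

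COL5A2 differed most of the 41 genes in the sphere comparisons with DMSO and with negative siRNA. With mavacoxib COL4A2, at 2.18 ± 0.21, was level with it, as was COL12A1, at 2.52 ± 0.10, with the labelled COX-2 siRNA. COL5A2 encodes the second chain of type V collagen, which sits inside type I fibrils. Its signals were 3.34, 3.63 and 3.95 on the adherent DMSO arrays and 7.16, 7.13 and 6.69 on the sphere DMSO arrays, with negative siRNA 4.37, 4.50 and 4.06 against 7.67, 7.72 and 7.62. No sphere array overlapped an adherent one, and the adherent values lay under 4.82. The difference was 3.35 ± 0.18 (SE) with DMSO, or 10.2-fold (adjusted p = 2.64e-13), 2.17 ± 0.18 with mavacoxib, 3.36 ± 0.18 with negative siRNA and 2.53 ± 0.18 with the labelled COX-2 siRNA.

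COL3A1, the fibrillar collagen of distensible tissues, read 4.0, 3.72 and 4.39 on adherent DMSO arrays and 6.78, 6.49 and 7.29 on sphere DMSO arrays. With negative siRNA the adherent arrays read 4.02, 4.48 and 4.86 and the sphere arrays 6.22, 5.98 and 6.35. The groups did not overlap in any of the 4 pairs, and the difference ran from 2.82 ± 0.23 with DMSO (7.04-fold, adjusted p = 4.64e-10) to 1.73 ± 0.23 with negative siRNA (adjusted p = 1.29e-06). COL3A1 and COL5A2 are neighbours with no gene between them in the RefSeq annotation of a Canis lupus assembly.

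The chains of type I collagen, the main fibril of stroma, differed less with DMSO. COL1A1 read 4.14, 4.21 and 4.20 in adherent DMSO cells and 4.84, 4.88 and 5.12 in DMSO spheres, a difference of 0.76 ± 0.19 (adjusted p = 0.00229). With negative siRNA the arrays overlapped and the difference of 0.58 ± 0.19 (adjusted p = 0.0189) lost its call in 6 of the 12 alternative settings, 3 of which left out 1 array (adherent array 2, adherent array 3 or sphere array 3). With mavacoxib on both forms COL1A1 was higher by 1.79 ± 0.19 (3.46-fold, adjusted p = 5.7e-08), close to the 2.12 ± 0.23 of COL3A1 there, and kept its call in all 12 settings. With the labelled siRNA the difference was 0.69 ± 0.19, and the call was lost after quantile normalization or a shift to one median. COL1A2 was higher by 0.79 ± 0.12 with DMSO (adjusted p = 1.24e-05), by 0.56 ± 0.12 with mavacoxib and by 0.81 ± 0.12 with the labelled siRNA; with negative siRNA its difference was 0.18 ± 0.12, which did not pass (adjusted p = 0.26). COL5A3, another type V chain, was higher by 0.93 to 1.17 in the 4 comparisons. COL5A1 went the other way: it was lower in spheres by -0.58 ± 0.17 with mavacoxib (adjusted p = 0.00666) and by -0.68 ± 0.17 with negative siRNA (adjusted p = 0.00206). Its negative siRNA arrays read 6.14, 5.75 and 6.28 when adherent and 5.08, 5.30 and 5.74 as spheres. The other fibrillar genes, COL2A1, COL11A1, COL11A2 and COL27A1, passed in no comparison, and COL24A1 only with the labelled siRNA.

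**Figure D3:**
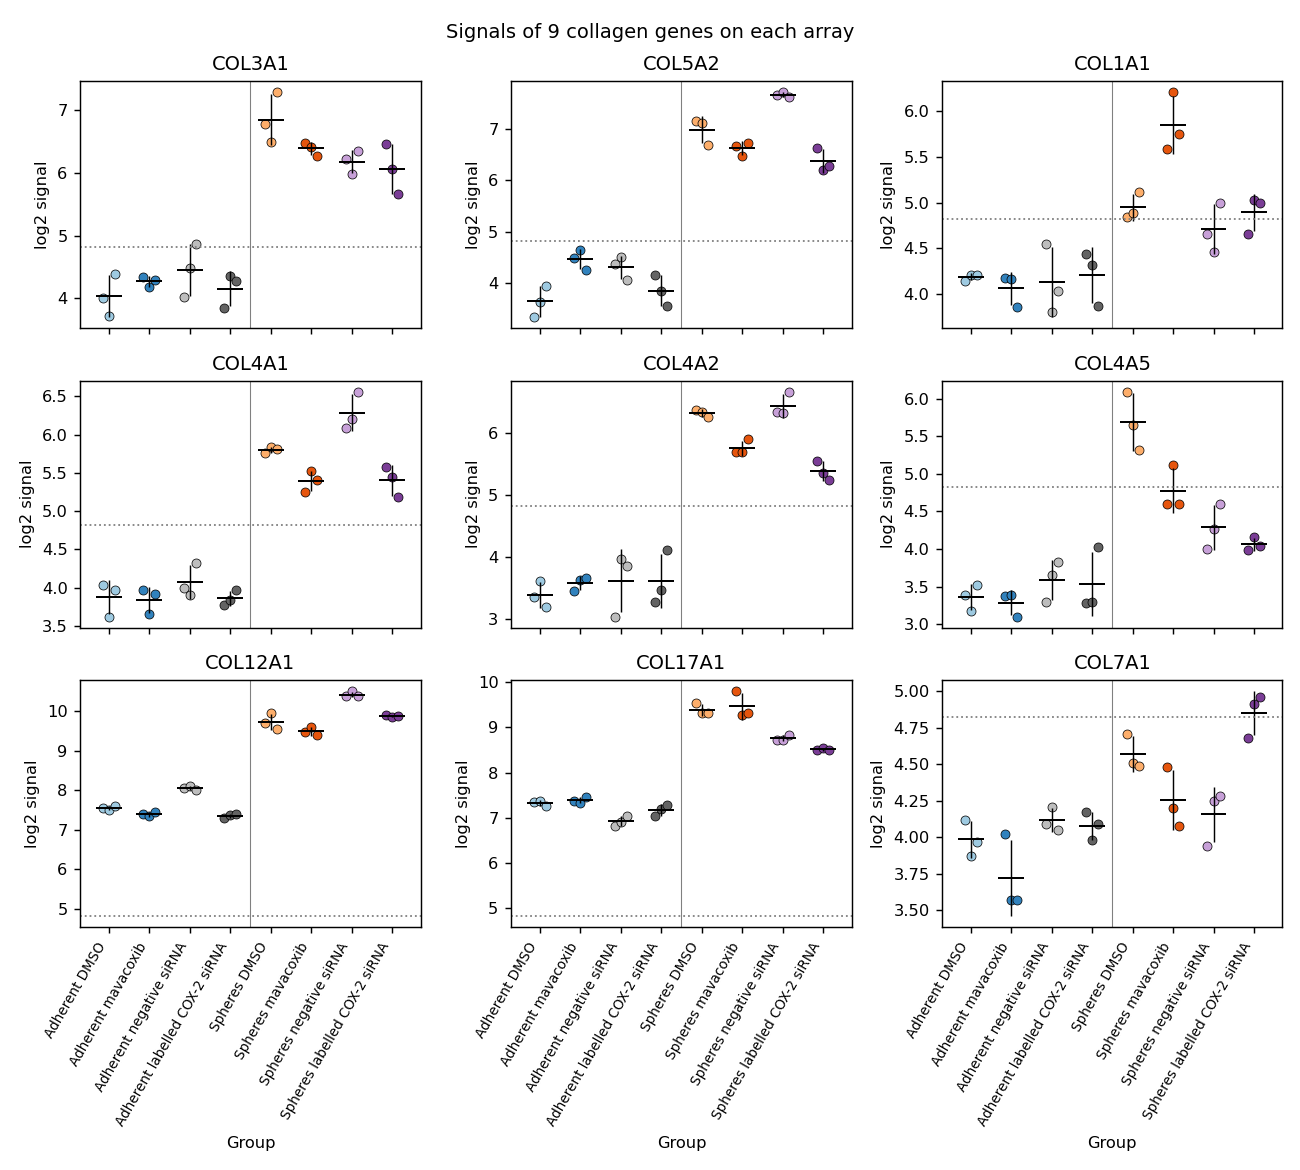
Log2 signal of 9 collagen genes on each of the 24 arrays, by group (3 points each), with the group mean as a bar and the SD as a vertical line; the dotted line is the median of all values, 4.82, and the grey line divides adherent cells from spheres. For COL3A1, COL5A2, COL4A1, COL4A2, COL12A1 and COL17A1 every sphere array lies above every adherent array.

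Type IV collagen chains pair up in fixed trimers: the chains of COL4A1 and COL4A2 form the network found in nearly all basement membranes, and those of COL4A3 to COL4A6 form more restricted ones. COL4A2 read 3.36, 3.62 and 3.20 in adherent DMSO cells and 6.37, 6.35 and 6.26 in DMSO spheres, without overlap, a difference of 2.93 ± 0.21 (7.64-fold, adjusted p = 3.83e-11). COL4A1 read 4.04, 3.62 and 3.97 against 5.76, 5.84 and 5.81, a difference of 1.93 ± 0.15 (adjusted p = 1.78e-10). These partners, which also lie side by side in the RefSeq annotation, were higher in spheres by 1.77 to 2.93 and by 1.54 to 2.21 over the 4 comparisons.

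COL4A5 rose from 3.39, 3.17 and 3.52 in adherent DMSO cells to 6.09, 5.65 and 5.32 in DMSO spheres, by 2.33 ± 0.21 (adjusted p = 4.26e-09). Its sphere values were lower in every other treatment, and with the labelled COX-2 siRNA, at 3.98, 4.16 and 4.04 against 3.28, 3.29 and 4.03, the arrays overlapped. That difference of 0.53 ± 0.21 (adjusted p = 0.0476) lost its call in 9 of 12 settings. Human COL4A5 and COL4A6 are transcribed from a shared promoter region, but COL4A6 stayed between 2.45 and 2.91 in the group means and passed in no comparison. COL4A3 and COL4A4, which supply the partner chains of COL4A5 in kidney, also passed in none.

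Among the fibril-associated genes, COL12A1 had the smallest SE of the 41 collagen genes. It read 7.55, 7.51 and 7.61 in adherent DMSO cells and 9.70, 9.94 and 9.55 in DMSO spheres. All 12 adherent arrays lay between 7.29 and 8.10 and all 12 sphere arrays between 9.39 and 10.50. The sphere difference was 2.17 ± 0.10 with DMSO (4.51-fold, adjusted p = 1.8e-14) and 2.52 ± 0.10 with the labelled COX-2 siRNA (adjusted p = 1.36e-15). COL14A1, its close relative, stayed under 4.82 everywhere and was higher in spheres by 0.77 ± 0.16 with DMSO and 1.59 ± 0.16 with negative siRNA. COL16A1 was higher by 1.20 ± 0.25 with DMSO (adjusted p = 0.00028), and its difference of 0.47 ± 0.25 with negative siRNA did not pass. The other 7 genes of the class, among them the type IX chains of cartilage, passed on the higher side in no sphere comparison. COL9A1 and COL20A1 were lower with negative siRNA only, by -0.67 ± 0.18 and -0.44 ± 0.14, both at signals of 3.60 or less, and the COL20A1 call was lost without adherent array 3 or sphere array 2 (largest adjusted p = 0.112).

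COL17A1 read 7.35, 7.38 and 7.26 on adherent DMSO arrays, 9.53, 9.31 and 9.32 on sphere DMSO arrays, 6.82, 6.90 and 7.04 on adherent negative siRNA arrays and 8.73, 8.71 and 8.84 on sphere negative siRNA arrays. The groups were far apart in each pair. The sphere difference was 2.06 ± 0.12 with DMSO (4.16-fold, adjusted p = 1.79e-12), 2.08 ± 0.12 with mavacoxib, 1.84 ± 0.12 with negative siRNA and 1.35 ± 0.12 with the labelled COX-2 siRNA (adjusted p = 3.19e-09). COL17A1 protein anchors basal epithelial cells together with ITGA6, ITGB4, plectin, dystonin and keratin 5. Of 8 measured genes for these partners, 3 were higher and 1 lower in DMSO spheres, a share near the 46.1% of all genes: KRT5 by 8.42 ± 0.19, ITGA6 by 0.83 ± 0.12, DST by 0.32 ± 0.13 and, in the other direction, the laminin chain LAMA3 by -0.61 ± 0.10. With mavacoxib 1 was higher and 2 lower, while with negative siRNA 4 were higher and 1 lower and with the labelled siRNA 4 and 2.

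COL7A1, which makes the fibrils that fasten this anchor to the stroma, was higher in DMSO spheres by 0.58 ± 0.14 (adjusted p = 0.00117) and by 0.77 ± 0.14 with the labelled COX-2 siRNA, and its difference with negative siRNA, 0.04 ± 0.14, did not pass. COL6A1, a chain of the beaded filaments around cells, read 3.93, 3.31 and 3.64 in adherent DMSO cells and 5.07, 4.98 and 5.62 in DMSO spheres, a difference of 1.60 ± 0.23 (adjusted p = 3.52e-06), while COL6A3, COL6A5 and COL6A6 passed in no sphere comparison. COL18A1, the basement membrane multiplexin that releases endostatin, was higher by 1.09 ± 0.19 with DMSO (limma, adjusted p = 4.61e-05) and by 0.94 with mavacoxib. With the labelled siRNA it was higher by 0.55 (adjusted p = 0.0203), a call lost in 4 of 11 settings. With negative siRNA it was not called, with means of 4.06 in spheres and 3.64 in adherent cells. No group mean of COL18A1 lay above 4.82. Its relative COL15A1 was called in both directions, lower by -0.57 ± 0.18 with mavacoxib and higher by 0.53 ± 0.18 with negative siRNA. The first call was lost without sphere mavacoxib array 3 (adjusted p = 0.0571), and the second, with overlapping arrays, in 5 of 11 settings.

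**Figure D4:**
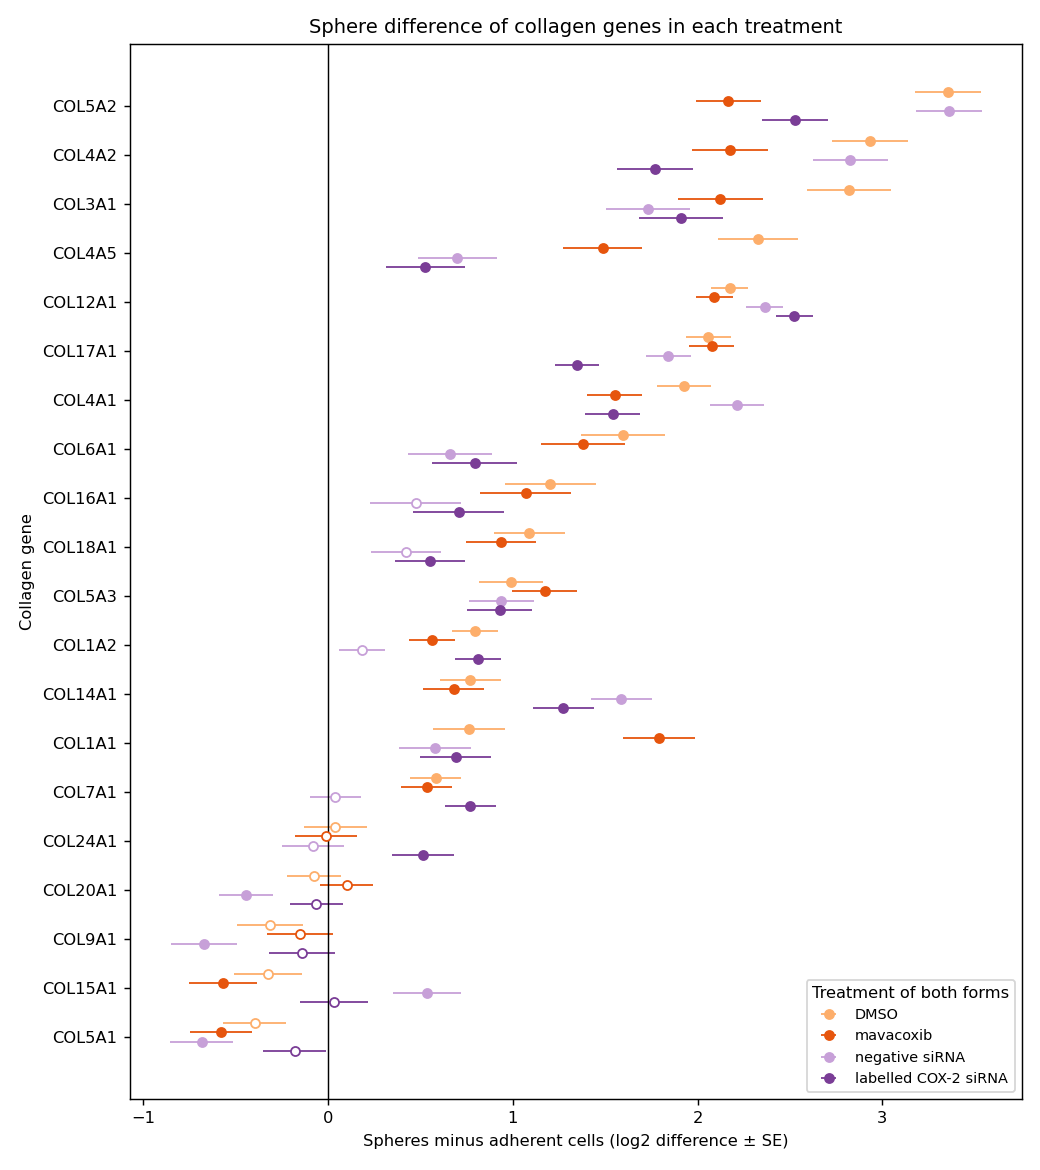
Difference between spheres and adherent cells (log2, with SE) for the 20 collagen genes called in at least 1 of the 4 sphere comparisons, coloured by the treatment given to both forms; filled points passed adjusted p under 0.05. COL5A2, at 3.36 with negative siRNA and 3.35 with DMSO, lies farthest right, and COL5A1 lies left of 0 in all 4 comparisons.

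With mavacoxib few of the 41 collagen genes were called, and 28 of the 41 had no group mean above 4.82. In adherent cells 1 of 41 was higher and 0 lower (2.44%; over all genes 4.12% passed, 2.61% higher and 1.5% lower). That gene was COL5A2, which read 3.34, 3.63 and 3.95 with DMSO and 4.49, 4.64 and 4.26 with mavacoxib. The arrays did not overlap, and the difference was 0.82 ± 0.18 (adjusted p = 0.00783), which lost its call without DMSO array 1 or mavacoxib array 2 (largest adjusted p = 0.0698) and lies wholly under 4.82. COL3A1 differed by 0.23 ± 0.23 (adjusted p = 0.705) and COL17A1 by 0.06 ± 0.12.

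In spheres, mavacoxib left 1 collagen gene higher and 1 lower, or 4.88%. Over all genes 21.4% passed, 11.1% higher and 10.3% lower. The split was 1 and 3 after quantile normalization and 1 and 4 with dim genes filtered out. The shares of all genes in those fits are not given. COL1A1 rose from 4.84, 4.88 and 5.12 to 5.59, 6.21 and 5.75, by 0.90 ± 0.19 (1.87-fold, adjusted p = 0.00172), while its type I partner COL1A2 differed by -0.15 ± 0.12 and did not pass. COL4A5 fell from 6.09, 5.65 and 5.32 to 4.60, 5.12 and 4.60, by -0.91 ± 0.21 (adjusted p = 0.00356). Neither pair of groups overlapped. COL4A2 (-0.57 ± 0.21), COL6A1 (-0.56 ± 0.23) and COL3A1 (-0.46 ± 0.23) had lower means that did not pass in the main fit. Of the 7 fibroblast markers 0 were higher and 1 lower in the same spheres (PDGFRA, by -0.74 ± 0.11), and its part was not tested.

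With the labelled COX-2 siRNA in adherent cells, 0 collagen genes were higher and 3 lower than with negative siRNA (7.32%; over all genes 15%, 6.42% higher and 8.59% lower). The direction is that of groups whose PTGS2 did not fall against negative siRNA. COL12A1 read 8.05, 8.10 and 8.01 with negative siRNA and 7.29, 7.37 and 7.40 with the labelled siRNA, a drop of -0.70 ± 0.10 (adjusted p = 3.63e-05). COL5A1 fell from 6.14, 5.75 and 6.28 to 5.49, 5.12 and 5.45, by -0.70 ± 0.17 (adjusted p = 0.00664). COL24A1, a minor fibrillar collagen at signals of 2.68 to 3.45, was lower by -0.50 ± 0.17 (adjusted p = 0.0498) and lost its call without any 1 of the 6 arrays. The siRNA groups did not overlap for any of these 3 genes. The adherent DMSO arrays read 7.51 to 7.61 for COL12A1 and 5.35 to 5.84 for COL5A1.

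In spheres the labelled COX-2 siRNA left 4 collagen genes higher and 4 lower (19.5%; over all genes 39%, 15.8% higher and 23.3% lower), or 3 and 5 with arrays shifted to one median. The 4 lower genes were COL5A2, from 7.67, 7.72 and 7.62 to 6.64, 6.20 and 6.28 (-1.30 ± 0.18, adjusted p = 4.35e-06), COL4A2 (-1.06 ± 0.21), COL4A1 (-0.89 ± 0.15) and COL12A1 (-0.54 ± 0.10). COL4A2 read 6.34, 6.33 and 6.67 with negative siRNA and 5.56, 5.36 and 5.24 with the labelled siRNA. COL4A1 read 6.09, 6.21 and 6.56 against 5.57, 5.45 and 5.18. None of these arrays overlapped. The DMSO sphere means were 6.99 (COL5A2), 6.33 (COL4A2), 5.80 (COL4A1) and 9.73 (COL12A1). The labelled siRNA mean of COL12A1, 9.88, lay above its DMSO mean. Those of COL5A2 (6.37), COL4A2 (5.39) and COL4A1 (5.40) lay below theirs. COL7A1 rose from 3.94, 4.25 and 4.28 to 4.68, 4.91 and 4.96, by 0.69 ± 0.14 (adjusted p = 0.000322). The other 3 higher genes, COL6A3 (0.58 ± 0.17), COL20A1 (0.53 ± 0.14) and COL23A1 (0.96 ± 0.35), had overlapping arrays, and each lost its call in at least 1 setting. For COL23A1 the dimmer feature differed by 0.40 ± 0.22, and with mavacoxib in spheres the brighter and dimmer features disagreed in sign (0.46 and -0.28). COL3A1 differed by -0.12 ± 0.23 and COL17A1 by -0.24 ± 0.12, and neither passed in the main fit. COL17A1 passed as lower with arrays shifted to one median. Beside the collagen genes, 3 of the 7 fibroblast markers were higher and 0 lower: PDGFRB by 0.67 ± 0.14, PDGFRA by 0.63 ± 0.11 and DPT by 0.58 ± 0.15. The log2 of the summed signal of the list was 7.93 to 8.05 with negative siRNA and 8.48 to 8.72 with the labelled siRNA. That sum is mostly PDGFRA (means 7.69 and 8.32). The part of these markers in the result was not tested.

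**Figure D5:**
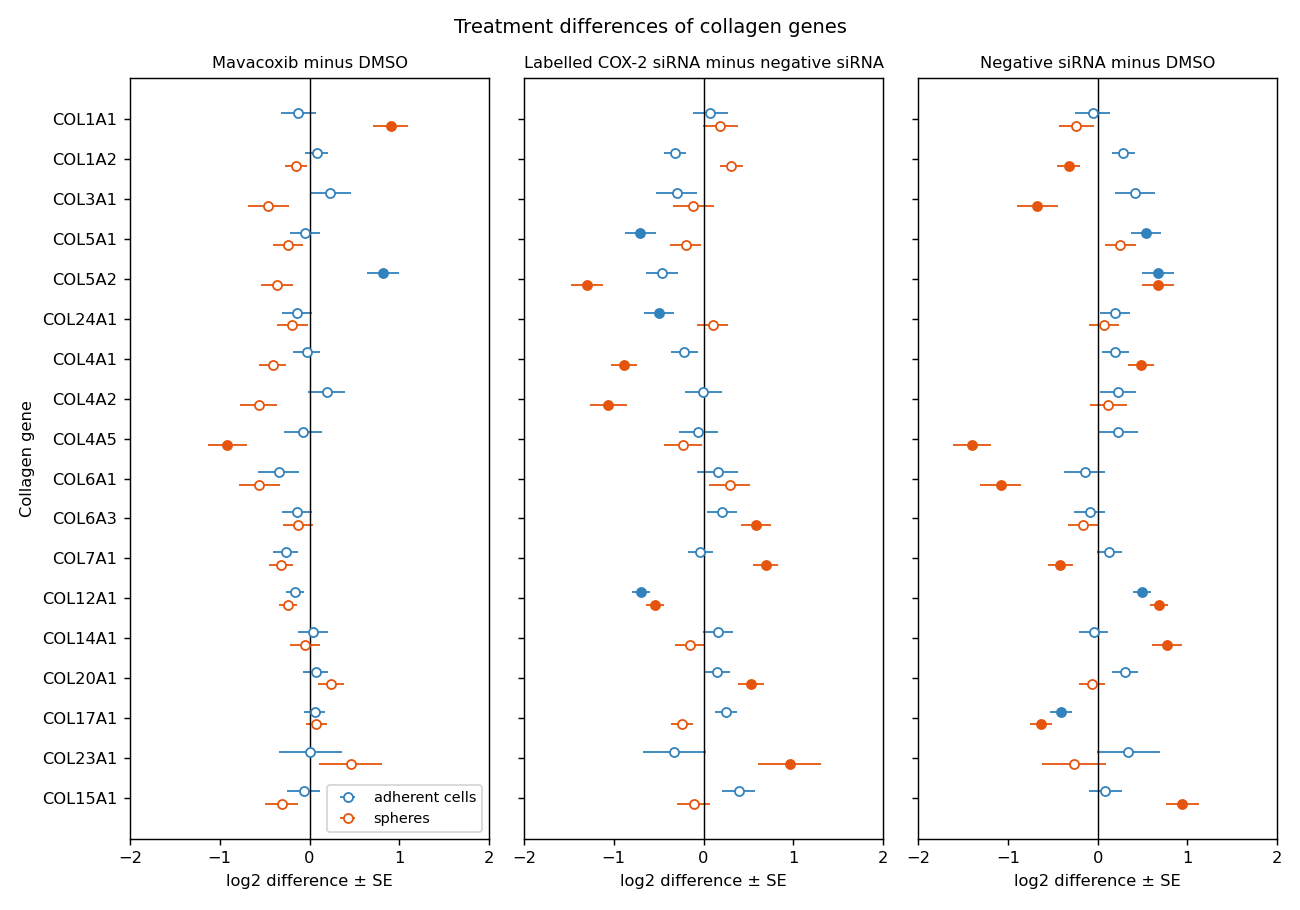
Differences between treatments (log2, with SE) in adherent cells (blue) and spheres (orange) for the 18 collagen genes called in at least 1 of the 6 comparisons: mavacoxib minus DMSO, labelled COX-2 siRNA minus negative siRNA, and negative siRNA minus DMSO. Filled points passed adjusted p under 0.05; COL5A2 at -1.30 and COL4A5 at -1.40 in spheres are the lowest points of the middle and right panels.

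The control groups themselves differed, in PTGS2 as given above and in collagen genes. Negative siRNA against DMSO in adherent cells gave 3 higher and 1 lower collagen genes (9.76%; over all genes 13.9%, 8.74% higher and 5.11% lower). COL5A2 was higher by 0.67 ± 0.18 (adjusted p = 0.0142), COL12A1 by 0.50 ± 0.10 (adjusted p = 0.00183) and COL5A1, with overlapping arrays, by 0.54 ± 0.17, and COL17A1 was lower by -0.41 ± 0.12 (adjusted p = 0.027). Without DMSO array 1 or array 2 the count was 2. The COL5A2 call was lost without DMSO array 1 or negative siRNA array 2, the COL5A1 call in 5 of 12 settings, and the COL17A1 call was lost without any 1 of 4 arrays (DMSO 1 or 2, negative siRNA 1 or 2).

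In spheres, 5 collagen genes were higher and 6 lower with negative siRNA than with DMSO (26.8%; over all genes 35.3%, 19% higher and 16.4% lower). Without array 3 of the negative siRNA spheres the split was 4 and 7, and without array 3 of the DMSO spheres 6 and 4. COL15A1 read 4.19, 4.27 and 3.81 against 2.63, 3.25 and 3.56 with DMSO, a difference of 0.94 ± 0.18 (adjusted p = 0.000282). COL14A1 (0.77 ± 0.16), COL12A1 (0.69 ± 0.10), COL5A2 (0.68 ± 0.18) and COL4A1 (0.48 ± 0.15) were also higher. COL4A5 fell most, from 6.09, 5.65 and 5.32 with DMSO to 4.0, 4.27 and 4.60, by -1.40 ± 0.21 (2.63-fold, adjusted p = 1.83e-05). COL6A1 was lower by -1.08 ± 0.23, COL3A1 by -0.67 ± 0.23, COL17A1 by -0.63 ± 0.12, COL7A1 by -0.41 ± 0.14 and COL1A2 by -0.32 ± 0.12, a call lost in 9 of 11 settings. COL4A1 lost its call without negative siRNA array 3, and COL7A1 without DMSO array 1 or negative siRNA array 1. The neighbours COL3A1 and COL5A2 thus moved in opposite directions, and COL3A1 lost its call without DMSO array 3 or negative siRNA array 2 (largest adjusted p = 0.157). Of the fibroblast markers 0 were higher and 2 lower, with a part in the result that was not tested. This comparison shares its arrays with those above, so its values are not independent of theirs.

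The difference between the 2 forms in their responses was tested directly. For mavacoxib, 1 collagen gene had a higher and 1 a lower response in spheres than in adherent cells (4.88%; over all genes 10.3%, 4.49% higher and 5.82% lower). For the labelled COX-2 siRNA, 2 were higher and 3 lower (12.2%; over all genes 15.3%, 6.74% higher and 8.53% lower), or 1 and 4 after quantile normalization or a shift to one median. The COL17A1 difference was 0.25 ± 0.12 in adherent cells and -0.24 ± 0.12 in spheres. The -0.49 ± 0.17 between them missed the threshold (limma, adjusted p = 0.0555). It passed in 3 of 18 alternative settings: a shift to one median, dim genes filtered out, or without adherent labelled siRNA array 1. The sphere difference itself depended on the control: 2 collagen genes had a higher and 4 a lower sphere difference with negative siRNA than with DMSO (14.6%; over all genes 17.1%, 7.77% higher and 9.29% lower). COL4A5 showed the widest, 0.70 ± 0.21 with negative siRNA against 2.33 ± 0.21 with DMSO.

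Genes that make and process collagen were counted in the same comparisons. Of 16 measured genes that hydroxylate, glycosylate or fold the chains, 9 were higher and 0 lower in DMSO spheres (median 0.58, against -0.03 for all genes, of which 22.8% were higher and 23.3% lower), among them the prolyl hydroxylase P3H2 by 6.42 ± 0.18, FKBP14 by 2.55 ± 0.13, the collagen chaperone SERPINH1 by 1.95 ± 0.11 and the lysyl hydroxylase PLOD1 by 1.95 ± 0.12. With mavacoxib 7 were higher and 2 lower (median 0.14), with negative siRNA 9 and 1, and with the labelled siRNA 8 and 3. Of 19 genes for export, cleavage and cross-linking, 8 were higher and 3 lower in DMSO spheres, with PCOLCE, an enhancer of procollagen cleavage, at 4.40 ± 0.15, the procollagen protease TLL1 at 4.16 ± 0.19, and the cross-linking enzymes LOXL4 at 3.70 ± 0.18 and LOX at 3.26 ± 0.13. The counts were 8 and 4 with mavacoxib, 9 and 2 with negative siRNA and 9 and 4 with the labelled siRNA.

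Under treatment the shares of all genes called, against which the counts of these lists are to be read, were 4.12% for mavacoxib in adherent cells, 21.4% for mavacoxib in spheres, and 15% and 39% for the labelled siRNA in adherent cells and spheres. Mavacoxib left 3 of the 16 chain-modifying genes higher and 0 lower in adherent cells, with P4HA3, a prolyl hydroxylase subunit, at 0.76 ± 0.13, and 0 higher and 3 lower in spheres, with P3H2 at -0.65 ± 0.18. In spheres the labelled COX-2 siRNA left 0 of them higher and 7 lower, including P4HB by -0.80 ± 0.09, P4HA3 by -0.85 ± 0.13 and COLGALT1, which adds galactose to the chains, by -0.83 ± 0.16; in adherent cells 1 was higher and 0 lower. Of the 19 export and cross-linking genes, mavacoxib left 2 higher and 5 lower in spheres (LOX -1.04 ± 0.13) and 0 higher and 1 lower in adherent cells (LOXL2 -0.91 ± 0.16). The labelled siRNA left 5 higher and 5 lower in spheres and 3 higher and 2 lower in adherent cells, where LOX was higher by 0.95 ± 0.13.

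Of 9 measured collagen receptors, 3 were higher and 1 lower in DMSO spheres, a share near the 46.1% of all genes called there: DDR2, a tyrosine kinase receptor for fibrillar collagen, rose by 5.26 ± 0.16, MRC2, an uptake receptor, by 2.52 ± 0.14 and LAIR1 by 0.65 ± 0.19, and the integrin chain ITGA1 fell by -1.46 ± 0.16. Of 10 collagenase and turnover genes, 5 were higher and 0 lower, with the interstitial collagenase MMP1 at 7.86 ± 0.24 and MMP14 at 3.17 ± 0.13. In spheres the labelled siRNA left 3 of the 10 higher and 3 lower (39% of all genes were called), with MMP13, another collagenase, higher by 3.65 ± 0.20 (adjusted p = 1.85e-12). Mavacoxib left 0 higher and 2 lower in spheres (21.4% of all genes), with MMP14 at -1.28 ± 0.13.

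Of 9 measured partners of type IV collagen in basement membranes, 3 were higher and 1 lower in DMSO spheres, again near the 46.1% of all genes. The counts were 2 and 4 with mavacoxib and with negative siRNA, and 3 and 3 with the labelled siRNA. NID2 rose by 3.99 ± 0.19, SPARC by 3.23 ± 0.17 and AGRN by 0.74 ± 0.14, and NID1 fell by -0.43 ± 0.15. Mavacoxib left 0 higher and 5 lower in spheres (all genes 11.1% and 10.3%), among them LAMA5 by -1.35 ± 0.12, AGRN by -1.12 ± 0.14 and HSPG2, the proteoglycan perlecan, by -1.11 ± 0.13. The labelled COX-2 siRNA left 2 higher and 5 lower in spheres (all genes 15.8% and 23.3%), among them NID2 by -0.91 ± 0.19, LAMA5 by -0.89 ± 0.12 and SPARC by -0.79 ± 0.17. Of 12 measured genes of TGF-beta signalling, a known collagen inducer, 5 were higher and 2 lower in DMSO spheres (all genes 22.8% and 23.3%). The higher ones included TGFBI at 5.92 ± 0.13, TGFB3 at 2.43 ± 0.21 and TGFB1 at 1.80 ± 0.12. The sphere counts were 6 and 2 with mavacoxib, 5 and 3 with negative siRNA and 7 and 2 with the labelled siRNA. Against negative siRNA, the labelled siRNA left 5 higher and 0 lower when adherent, where collagen genes gave 0 and 3. For spheres the list gave 6 and 2, and collagen genes 4 and 4. Mavacoxib left 0 and 1 when adherent, and 2 and 4 as spheres. Negative siRNA against DMSO gave 0 and 1, and 2 and 5, in the same order. A link to the collagen genes was not tested.

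In all, 22 of the 41 collagen genes passed in at least 1 of the 10 comparisons between groups and 19 in none. Those 19 had no group mean above 4.59, and their group means spanned 0.23 to 0.75. They included COL2A1, COL10A1, COL11A1 and the other cartilage collagens apart from COL9A1. Of the 22, 9 had no group mean above 4.82. COL5A2 and COL12A1 passed in 8 of the 10 comparisons, more than any other collagen gene. The share of all genes that passed in at least 1 of the 10 is not given here, so the 22 cannot be set against it. Single comparisons among the 10 called 4.12% to 48% of all genes.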

How the data were processed

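RNA from 24 samples was hybridised to Affymetrix Canine Gene 1.1 ST arrays, 3 per group. The deposited values are log2 signals of 27766 features, which the authors made with Affymetrix Expression Console 1.1, per the submitters' processing notes. The summarisation and normalization method is not given in the sources used here. Features were named from the platform annotation: 16878 had 1 symbol, 289 several and 10599 none. The brightest feature by mean over all arrays stood for each of 16295 genes (521 had several). Groups came from the sample labels.

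With limma 3.58.1 (R 4.3.3), 8 group means were fitted to the 24 arrays and moderated by eBayes (16 residual and 5.54 prior degrees of freedom), two-sided, with Benjamini-Hochberg adjustment over all 16295 genes in each of 13 comparisons, 3 of them differences between effects. A gene was called at adjusted p under 0.05. The same fit was run on simulated data with independent noise for each gene. Those data held no shifts of whole arrays, so the run does not cover the array differences given above. Errors are SE from the fit; 10 comparisons share groups.

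COL3A1 and COL17A1 were named throughout, with, per comparison, up to 6 called collagen genes in each direction whose arrays did not overlap (4 for differences between effects) and up to 4 members of each other list. Further collagen genes were picked once their values had been seen. The members and lists were chosen with earlier results of these data known. Gene order came from RefSeq, where 41 of 41 collagen symbols matched. Sequences were not used here.

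Alternatives were quantile normalization, a shift of all arrays to one median, a filter on dim genes, the mean of a gene's features, the compared arrays only, the replicate number as a block, and each array left out. Shares of all genes called are given for the main fit only. Equal replicate numbers did not pair the arrays: of 30 same-numbered pairs, 9 had deviations correlated above 0.1 (range -0.171 to 0.266).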

Additional observations from a re-analysis of the deposited data

Results flagged for a closer look

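Of the collagen genes, 13 differences between effects passed limma's test of the difference itself (adjusted p under 0.05 over all genes). The mavacoxib response was higher in spheres than in adherent cells for COL1A1, by 1.03 (adjusted p = 0.0178), and lower for COL5A2, by -1.19 (adjusted p = 0.00326): COL1A1 changed by -0.12 in adherent cells and 0.90 in spheres, COL5A2 by 0.82 and -0.36. The COL1A1 call was lost without adherent mavacoxib array 3 or sphere mavacoxib array 2.

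The response to the labelled COX-2 siRNA, whose target PTGS2 did not fall against negative siRNA, was higher in spheres than in adherent cells for COL7A1, by 0.73 (adjusted p = 0.0135), and COL1A2, by 0.63 (adjusted p = 0.0181). It was lower for COL4A2, by -1.06 (adjusted p = 0.0162), COL5A2, by -0.83 (adjusted p = 0.0278), and COL4A1, by -0.67 (adjusted p = 0.0317). COL1A2 passed in neither form alone (-0.32 and 0.31).

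The difference between spheres and adherent cells was higher with negative siRNA than with DMSO for COL15A1, by 0.86 (adjusted p = 0.0251), and COL14A1, by 0.82 (adjusted p = 0.0162). It was lower for COL4A5, by -1.63 (adjusted p = 0.000483), COL3A1, by -1.09 (adjusted p = 0.0216), COL6A1, by -0.94 (adjusted p = 0.0498), and COL1A2, by -0.61 (adjusted p = 0.0186). Of these 13, COL5A2 with mavacoxib, COL7A1 and COL4A5 kept their call in every setting tried, and the other 10 lost it in 1 to 10 settings.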

How the results depend on the processing

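Of 105 calls of collagen genes over the 13 comparisons, 72 kept direction and call in every setting tried, and none of the 1309 re-evaluations turned the sign of a call. Leaving out 1 array at a time, the count of called genes ran from 0 to 1 for mavacoxib in adherent cells (0 without DMSO array 1 or mavacoxib array 2), 2 to 3 for mavacoxib in spheres, 2 to 3 and 6 to 9 for the labelled siRNA in adherent cells and spheres, 15 to 16, 16 to 18, 12 to 15 and 13 to 19 for spheres against adherent cells with DMSO, mavacoxib, negative siRNA and the labelled siRNA, and 2 to 3 and 9 to 11 for negative siRNA against DMSO in adherent cells and spheres. For the differences between effects it ran from 1 to 3 (mavacoxib; 1 without adherent mavacoxib array 3), 3 to 7 (labelled siRNA; 3 without adherent labelled siRNA array 3, adherent negative siRNA array 1, sphere labelled siRNA array 3 or sphere negative siRNA array 1) and 3 to 9 (sphere difference; 3 without sphere DMSO array 3, adherent negative siRNA array 3, or sphere negative siRNA array 1 or 2). Mavacoxib in spheres gave 4 calls after quantile normalization and 5 with dim genes filtered out. With only the compared arrays, the labelled siRNA gave 5 in spheres and 3 for its difference between forms. With the replicate number as a block, which does not pair these arrays, the counts were 16, 17, 15 and 15 in the 4 sphere comparisons, 3 for mavacoxib in spheres and unchanged in the other 8.

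Sign changes touched 4 differences that were never called. COL17A1 with mavacoxib in spheres ran from -0.0917 (without sphere mavacoxib array 1) to 0.173 with 1 array left out. Its difference between forms was -0.011 after quantile normalization and ran from -0.148 to 0.117 with 1 array left out, below 0 in 5 of these fits. COL3A1 with the labelled siRNA in spheres ran from -0.318 to 0.0817 (without labelled siRNA array 3), and its difference between forms from -0.0233 (without adherent negative siRNA array 3) to 0.397. The cause was not tested. Signals near or under 4.82 have no detection call, which limits 28 of the 41 genes.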
